A study of Arabidopsis thaliana with 15 samples.

Results

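The genes described here are the sensor NLR (nucleotide-binding, leucine-rich repeat) immune receptors of Arabidopsis thaliana, chosen by their descriptions and a minimum count, with earlier results of these data known. A gene was a member if its deposited description held "disease resistance" or "NBS-LRR", held neither "responsive" nor "receptor like protein", was not 1 of 6 helper receptor loci, and had a mean count of at least 20 over all libraries. Of 32833 genes in the count table, 218 met the description part of that rule and 146 were members; 72 had a mean count under 20, of which 24 had no count in any library. The members nearest the threshold had mean counts of 20.1 (AT1G47370) and 22.2 (AT1G65850) inside it and 19.9 (AT5G25020) and 19.2 (AT5G41550) outside it. RNA came from seedlings of 1 week of age on MS-based medium that held 1% sucrose. There were 15 libraries, 3 each of gyf1, gyf2, the double mutants gyf1 gyf2-1 and gyf1 gyf2-2, and wild type (WT, Col-0); the series' design text speaks of duplicates. The labels give neither the mutated loci nor whether gyf2-1 and gyf2-2 are alleles or lines, nor which gyf2 the single mutant carries. The labels do not tie the libraries of a genotype to separate cultures, so the p-values speak to the spread among these libraries alone, which may be technical.

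Sensor NLRs are intracellular receptors that detect pathogen effector proteins, directly or through a host protein that the effector alters. A typical member has an N-terminal TIR or coiled-coil (CC) domain, a nucleotide-binding NB-ARC domain that works as a switch, and leucine-rich repeats. Once active, TIR receptors make small nucleotide signals that are read by EDS1 with its partners PAD4 and SAG101 and passed to helper NLRs of the ADR1 and NRG1 families, whereas CC receptors such as ZAR1 assemble into channels in the plasma membrane. NLR transcripts are kept low in unchallenged plants, and microRNAs, head-to-head gene pairs with a common upstream region and large tandem clusters are all known features of the family. In Arabidopsis the GYF-domain protein EXA1 is known to limit the translation of NLR transcripts; the labels do not say whether either mutated gene here is that one, and protein was not measured.

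By their descriptions, 89 members were TIR receptors, 27 CC receptors and 14 NB-ARC proteins with no N-terminal domain named. The other 16 named none of these domains. They include genes called EDR2-like, the leucine-rich repeat gene AT5G45510 and the gene BRX, so the rule reached somewhat beyond NLRs. A receptor domain was named for 130 of 146. All 146 passed the filter on low counts and were among the 20721 genes tested. Levels were low: the median of the members' mean FPKM (a deposited value, per length and per sequenced depth) was 3.86, within a range of 0.277 to 68.1. The highest were RLM3 (68.1 FPKM), a TIR gene needed for resistance to the fungus Leptosphaeria maculans, AT5G45510 (64.6), the NB-ARC gene AT5G45490 (50.7), the CC gene ZAR1 (38.0) and the CC gene AT1G58602 (35.1). The lowest were AT4G16940 (0.277 FPKM), AT1G58807 (0.295) and AT1G65850 (0.306). AT1G58807 and AT1G59124 carry the same symbol in the table, and reads of such near-identical copies cannot be assigned with certainty.

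Libraries held 16567801 to 24681140 counts, and the common biological coefficient of variation was 7.94%. Markers of shoot and root were both present in every library, from RBCS1A at 11047 to 15456 FPKM to PYK10 at 1260 to 2062 FPKM, and the root stem cell niche gene WOX5 at 0.343 to 1.37 FPKM. Of 10 such markers, PYK10 (log2 changes 0.49 and 0.52) and RBCS1A (0.24 and 0.22) were called higher in gyf1 gyf2-1 and gyf1 gyf2-2, the meristem gene STM higher in gyf1 gyf2-1 (0.57), the stomatal lineage gene SPCH lower in both (-0.52 and -0.65), and PYK10 higher in gyf1 (0.35). Their part in the results was not tested. In whole-seedling RNA fewer cells of a type and less RNA per cell cannot be told apart. Among the WT libraries, replicate 1 had the lowest NLR levels. The median TIR gene stood at -0.14 on a log2 scale against the WT mean in that library, and at 0.01 and 0.09 in WT replicates 2 and 3.

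More sensor NLR transcripts rose than fell in both double mutants. TIR receptors made up the larger part of those that rose, as they do of all members (89 of 146). In gyf1 gyf2-1, 51 of 146 members rose and 1 fell (edgeR quasi-likelihood F test, Benjamini-Hochberg adjusted p below 0.05 over all tested genes), beside 14.2% of all tested genes that rose and 11.7% that fell. In gyf1 gyf2-2, 56 rose and 3 fell, beside 15.1% and 12.6% of all tested genes. The median log2 fold change of the members was 0.17 in gyf1 gyf2-1 and 0.19 in gyf1 gyf2-2, against -0.01 over all tested genes in each. Both comparisons use the same 3 WT libraries. Left out singly, WT replicate 1 lowered the number of risen members to 30 in gyf1 gyf2-1 (11.3% of all tested genes then rose) and to 35 in gyf1 gyf2-2 (13%), and gyf1 gyf2-1 replicate 2 lowered it to 33 (10.8%). Of the risen members, 28 in gyf1 gyf2-1 and 32 in gyf1 gyf2-2 kept their call with any 1 library left out. Reads from the 146 genes made up 0.378 to 0.439% of counts in gyf1 gyf2-1, 0.397 to 0.427% in gyf1 gyf2-2 and 0.318 to 0.358% in WT. In gyf1 they made up 0.355 to 0.378%, and in gyf2 0.352 to 0.393%, which overlapped gyf1 gyf2-1.

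In gyf1, no member was called in either direction, beside 0.405% of all tested genes that rose and 0.116% that fell. An unadjusted edgeR p below 0.05 was found for 20 members, 17 of them higher. The share of all tested genes at that unadjusted threshold was not counted. DESeq2 called 1 member, which was higher, beside 0.57% of all tested genes. In gyf2, 7 members rose and none fell, beside 1.99% and 0.516% of all tested genes (2.5% in either direction). The 7 were 6 TIR genes and ZAR1. They became 3 without WT replicate 1 (1.61% of all tested genes then rose) and 4 without WT replicate 2 (1.68%). Of the 7, 3 kept their call with any 1 library left out. The members' median change was 0.07 in gyf1 and 0.08 in gyf2, against -0.00 and -0.01 over all tested genes. With single libraries left out that median ran from 0.03 (without WT replicate 1) to 0.13 (without WT replicate 3) in gyf1, and from 0.04 to 0.12 without those same libraries in gyf2. No member was called between gyf1 gyf2-2 and gyf1 gyf2-1, where 0.232% of all tested genes were called in either direction (0.159% higher, 0.0724% lower). There 12 members had an unadjusted edgeR p below 0.05, 7 of them higher, again with no share of all tested genes counted. DESeq2 called 0 members, beside 0.203% of all tested genes higher and 0.14% lower.

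In gyf1 gyf2-1 40 of 89 TIR genes rose and none fell, with a median change of 0.30, and in gyf1 gyf2-2 47 rose and none fell, with a median of 0.26. Beside this and the class counts below, 14.2% and 15.1% of all tested genes rose in gyf1 gyf2-1 and gyf1 gyf2-2, and 11.7% and 12.6% fell. The TIR count in gyf1 gyf2-1 was 24 without WT replicate 1 and 25 without gyf1 gyf2-1 replicate 2, where 11.3% and 10.8% of all tested genes rose. In gyf1 gyf2-2 the TIR count was 26 without WT replicate 1, where 3 TIR genes also fell and 13% of all tested genes rose. It was 31 without either gyf1 gyf2-2 replicate 1 or replicate 3, where 11.7% and 12.2% of all tested genes rose. Of the CC genes 9 of 27 rose in gyf1 gyf2-1 and 6 of 27 in gyf1 gyf2-2, with medians of 0.15 and 0.18, and none fell. The 9 became 4 without WT replicate 1 or without gyf1 gyf2-1 replicate 3, where 11.3% and 11.5% of all tested genes rose. The CC median in gyf1 gyf2-1 was 0.09 without WT replicate 1 and 0.28 without gyf1 gyf2-1 replicate 1. In gyf1 gyf2-2 it was 0.10 without WT replicate 1, 0.11 without WT replicate 2, 0.11 without gyf1 gyf2-2 replicate 1 and 0.27 without gyf1 gyf2-2 replicate 2. Of the 14 NB-ARC genes with no N-terminus named, 0 rose and 1 fell in gyf1 gyf2-1 (median -0.03), and 1 rose and 2 fell in gyf1 gyf2-2 (median -0.15). Of the 16 genes with none of the 3 domains named, 2 rose in each double mutant, none fell in gyf1 gyf2-1 and 1 fell in gyf1 gyf2-2. The classes follow the wording of the descriptions alone, so the NB-ARC class may hold CC receptors whose description does not name that domain. The difference between classes was not tested. Among genes with a mean count of at least 100, 37 of 65 TIR genes and 9 of 22 CC genes rose in gyf1 gyf2-1, and 41 of 65 and 6 of 22 in gyf1 gyf2-2, beside 17.3% and 17.7% of all tested genes at that depth.

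**Figure D1:**
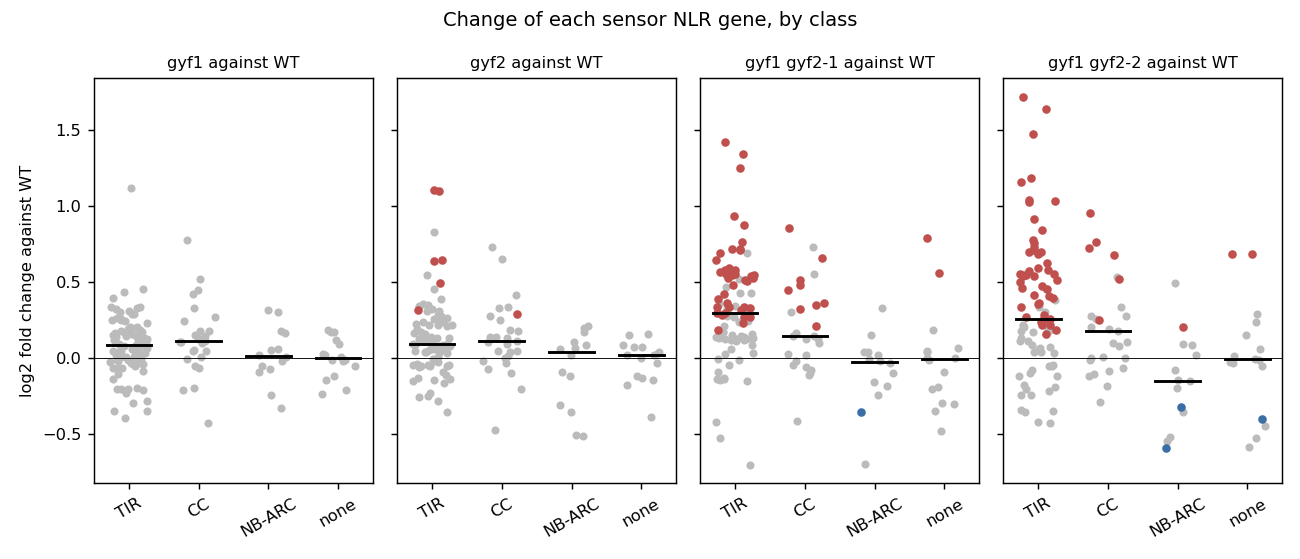
Log2 fold change of each of the 146 genes against WT (vertical axis), by class (horizontal axis; "none" are genes with no TIR, CC or NB-ARC domain named), for the 4 mutants. Each point is 1 gene, red where it rose, blue where it fell and grey where it was not called, and the black bar is the class median. TIR points lie above 0 most often in the double mutants, where 40 and 47 of 89 were called higher, beside 14.2% and 15.1% of all tested genes.

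Library by library, the TIR genes of the double mutants lay outside the WT range. The median log2 ratio of TIR genes to their WT mean was 0.19, 0.35 and 0.28 in the gyf1 gyf2-1 libraries, 0.32, 0.25 and 0.32 in gyf1 gyf2-2, 0.05, 0.08 and 0.09 in gyf1, 0.08, 0.05 and 0.19 in gyf2, and -0.14, 0.01 and 0.09 in WT. All 6 double mutant libraries were above all 3 WT libraries, and both single mutants overlapped WT. For CC genes the double mutant libraries ran from 0.05 to 0.28 and the WT libraries from -0.10 to 0.05, so that the groups came close without overlapping. NB-ARC genes overlapped, at -0.22 to 0.04 in the double mutants and -0.04 to 0.11 in WT. The median over all tested genes stayed between -0.02 and 0.00 in every library.

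**Figure D2:**
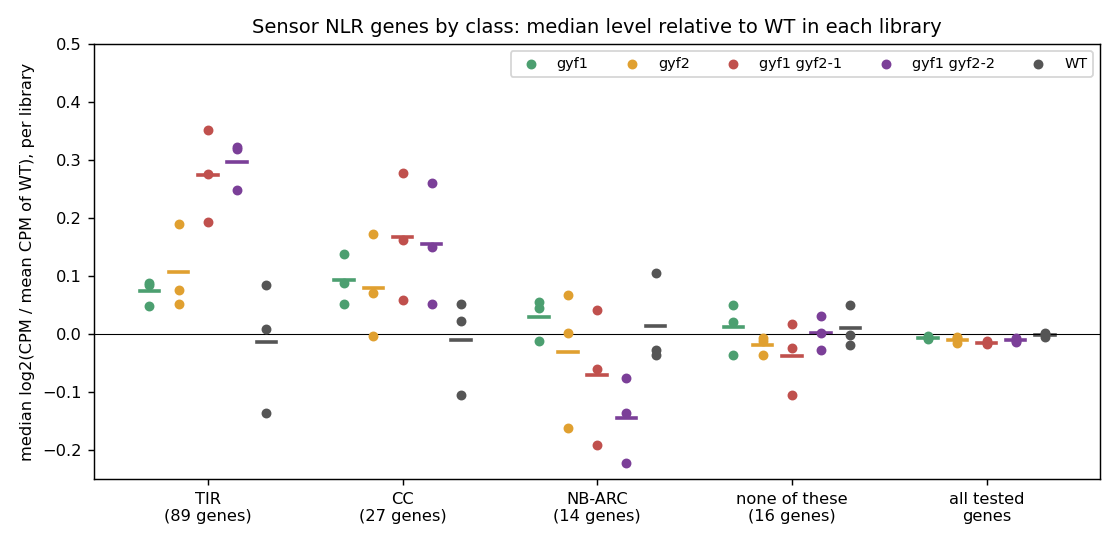
Median over the genes of a class of log2(CPM over the mean CPM of WT), 1 point per library, with a bar for the mean of the 3 libraries of a genotype; CPM is the count scaled to a fixed library total, after TMM normalisation. The TIR points of both double mutants (0.19 to 0.35) lie above all WT points (-0.14 to 0.09), and the points for all tested genes lie between -0.02 and 0.00.

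Among the TIR receptors, those listed under the SwissProt entry RML1A or RML1B in the deposited table held 4 of the 7 members that rose in gyf2. These entries are named for a locus of resistance to the blackleg fungus Leptosphaeria maculans. There were 13 such members, a grouping made after the values were seen; 4 of them rose in gyf2 (median change 0.31), 8 rose in gyf1 gyf2-1 (median 0.52), 10 rose in gyf1 gyf2-2 (median 0.55), and none fell. Of all tested genes 1.99%, 14.2% and 15.1% rose in these comparisons. The 12 members listed under RPP1, a downy mildew resistance gene, included 1 that rose in gyf2 (median change 0.10), 8 that rose in gyf1 gyf2-1 (median 0.52) and 10 that rose in gyf1 gyf2-2 (median 0.53). Of the other entries with 4 or more members, 2 of 6 under RPP5, 2 of 4 under RPS4 and 3 of 4 under RPS6 rose in each double mutant. Under the root growth response entry 3 and 2 of 6 rose. None rose in either double mutant of the 4 under TAO1 and the 5 under the EDR2-like entry. Of the 72 genes described as full TIR-NBS-LRR receptors 34 and 42 rose in gyf1 gyf2-1 and gyf1 gyf2-2, and of the 10 described as TIR-NBS, which lack the repeats, 3 and 2 rose.

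AT1G66090, described as TIR-NBS, had the largest change of any member in each double mutant. It lies at chr1:24602033-24604763 on the plus strand (TAIR10). It had 4.81, 7.95 and 5.95 CPM in gyf1, 15.7, 10.2 and 13.96 CPM in gyf2, 16.4, 20.6 and 13.2 CPM in gyf1 gyf2-1, 20.7, 19.4 and 21.5 CPM in gyf1 gyf2-2 and 6.101, 5.11 and 7.54 CPM in WT. All 6 double mutant libraries and all 3 gyf2 libraries were above every WT library, while gyf1 overlapped WT. Its log2 fold change was 1.1004 (SE 0.20, edgeR adjusted p = 0.00215) in gyf2, 1.42 (SE 0.20, edgeR adjusted p = 2.61e-05) in gyf1 gyf2-1 and 1.72 (SE 0.19, edgeR adjusted p = 1.56e-06) in gyf1 gyf2-2. These calls held with any 1 library left out.

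AT5G41740 and AT5G41750 are tandem TIR-NBS-LRR genes (chr5:16688626-16693119 and chr5:16693832-16699028, both plus strand), and reads that match both copies may be assigned to neither or the wrong one. AT5G41740 had 24.7, 22.97 and 26.7 CPM in gyf1, 34.5, 31.7 and 36.1 CPM in gyf2, 41.7, 43.8 and 40.2 CPM in gyf1 gyf2-1, 54.03, 44.2 and 51.1 CPM in gyf1 gyf2-2 and 18.9, 24.8 and 22.1 CPM in WT. It rose by 0.64 (SE 0.09, edgeR adjusted p = 3.77e-05) in gyf2 on the log2 scale, by 0.93 (SE 0.09, edgeR adjusted p = 1.29e-08) in gyf1 gyf2-1 and 1.18 (SE 0.09, edgeR adjusted p = 6.68e-11) in gyf1 gyf2-2. AT5G41750 had 11.3, 12.3 and 9.41 CPM in gyf1, 19.7, 15.4 and 21.9 CPM in gyf2, 27.2, 33.2 and 26.4 CPM in gyf1 gyf2-1, 38.2, 36.3 and 38.8 CPM in gyf1 gyf2-2 and 10.5, 11.2 and 14.97 CPM in WT. It rose by 0.65 (SE 0.14, edgeR adjusted p = 0.00695) in gyf2, a call lost without WT replicate 1 (adjusted p = 0.0508), and by 1.25 (SE 0.14, edgeR adjusted p = 2.73e-07) in gyf1 gyf2-1 and 1.63 (SE 0.13, edgeR adjusted p = 1.91e-09) in gyf1 gyf2-2. For both genes the order of the group means was gyf1 gyf2-2, gyf1 gyf2-1, gyf2 and then gyf1 and WT, which overlapped; the double mutants were not called against each other by the edgeR test.

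AT5G58120, also listed under RML1B, had 18.8, 20.9 and 20.9 CPM in gyf1, 23.8, 20.9 and 22.8 CPM in gyf2, 26.01, 24.5 and 24.4 CPM in gyf1 gyf2-1, 29.3, 24.6 and 32.3 CPM in gyf1 gyf2-2 and 14.2, 16.1 and 17.7 CPM in WT. It rose by 0.49 (SE 0.10, edgeR adjusted p = 0.00346) in gyf2 and by 0.64 (SE 0.10, edgeR adjusted p = 2.64e-05) in gyf1 gyf2-1 and 0.84 (SE 0.10, edgeR adjusted p = 2.12e-07) in gyf1 gyf2-2. Here gyf1 too lay above all WT libraries, at 0.33 (edgeR adjusted p = 0.208). AT1G63750, of the same group, had 22.9, 29.8 and 23.4 CPM in gyf1 gyf2-1, 28.4, 30.2 and 32.9 CPM in gyf1 gyf2-2 and 13.4, 14.8 and 16.7 CPM in WT, and rose by 0.76 (SE 0.11, edgeR adjusted p = 5.19e-06) in gyf1 gyf2-1 and 1.03 (SE 0.11, edgeR adjusted p = 1.51e-08) in gyf1 gyf2-2. The double mutant and WT libraries of both genes did not overlap.

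The 300 bases before the annotated start of each member were read from TAIR10.1, whose starts and ends match the deposited table for all 146. The windows were read for 2 short motifs, which were searched on both strands. The W-box, TTGACC or TTGACT, is the site of WRKY factors; it was in 32.3% of windows of all tested coding genes, 40.4% of members, 41.6% of TIR genes, and 32.5% and 40.4% of the TIR genes that rose in gyf1 gyf2-1 and gyf1 gyf2-2, against 49.0% and 42.9% of the TIR genes that did not. It was in 45.5% of windows of all tested coding genes that rose in gyf2, and in 2 of the 7 members that did. CGCGTT is the core of a stress element bound by CAMTA factors in Arabidopsis, and was searched after the windows had been seen. It was in 3.28% of windows of all tested coding genes, 6.33% of those of genes that rose in gyf2, and 11 of 146 members. Of members that rose, 3 of the 7 in gyf2 had it, as did 5 of 51 for gyf1 gyf2-1 and 6 of 56 for gyf1 gyf2-2. Of members that did not rise in these 3 comparisons, 8 of 139, 6 of 95 and 5 of 90 had it. Of all tested coding genes that rose in gyf1 gyf2-1 and gyf1 gyf2-2, 4.61% and 4.77% had it. The positions of CGCGTT were read with the calls known and were not set against those over all tested coding genes. In the CC genes AT1G59124 and AT1G58807, which rose in neither double mutant, it lay 112 bases before the start. CGCGTT was in 9 of 89 TIR genes. In AT5G46510, AT4G36140 and AT3G04220, which rose in neither double mutant, it lay 95, 185 and 276 bases before the start. In AT1G63860, which rose in both, it lay 111 to 269 bases before. In the other 5 TIR genes it lay 48 to 68 bases before the start. Their 120 bases before the start are shown 5′ to 3′ on the gene's strand, with CGCGTT or its complement in capitals, because 3 of them are members that rose in gyf2. They are chr1:24601913-24602032, chr5:16688506-16688625, chr5:23517136-23517255, chr1:23650720-23650839 and chr1:21181465-21181584, all on the plus strand.
AT1G66090: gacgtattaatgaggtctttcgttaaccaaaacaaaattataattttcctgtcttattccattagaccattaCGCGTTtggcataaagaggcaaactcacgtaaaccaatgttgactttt
AT5G41740: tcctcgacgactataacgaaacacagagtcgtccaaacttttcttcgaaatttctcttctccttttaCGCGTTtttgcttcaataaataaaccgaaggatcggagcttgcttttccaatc
AT5G58120: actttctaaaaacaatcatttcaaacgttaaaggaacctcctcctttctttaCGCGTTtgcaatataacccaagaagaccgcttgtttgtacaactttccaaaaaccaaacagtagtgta
AT1G63750: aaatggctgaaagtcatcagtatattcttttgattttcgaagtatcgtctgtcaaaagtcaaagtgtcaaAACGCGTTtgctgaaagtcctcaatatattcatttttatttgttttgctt
AT1G56540: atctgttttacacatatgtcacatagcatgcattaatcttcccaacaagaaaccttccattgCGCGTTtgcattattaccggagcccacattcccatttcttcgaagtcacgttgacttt
The last of these genes, AT1G56540, had 2.03, 2.34 and 2.39 CPM in gyf1, 4.04, 2.18 and 2.36 CPM in gyf2, 2.52, 3.29 and 2.75 CPM in gyf1 gyf2-1, 4.43, 3.46 and 4.28 CPM in gyf1 gyf2-2 and 2.11, 1.802 and 2.02 CPM in WT. It rose by 1.03 (SE 0.23, edgeR adjusted p = 0.00126) in gyf1 gyf2-2, with no overlap with WT, and stood at 0.52 (SE 0.25, edgeR adjusted p = 0.118) in gyf1 gyf2-1. AT5G41750, which has no CGCGTT in its 300 bases, changed by 1.25 and 1.63, beside 0.93 and 1.18 for its tandem neighbour that has one. In AT1G63750 the matches on both strands overlap. A match is a description of the letters and not of a bound factor.

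Of the 13 short TIR genes, 10 described as TIR-NBS and 3 as TIR domain proteins, 5 rose in gyf1 gyf2-1 and 4 in gyf1 gyf2-2. Beside these, 14.2% and 15.1% of all tested genes rose. Of the 10 TIR-NBS genes 3 and 2 rose, and of the 3 TIR domain genes 2 rose in each. AT2G20142, described as a TIR domain protein, had 8.21, 6.47 and 6.32 CPM in gyf1, 7.38, 8.51 and 8.601 CPM in gyf2, 14.4, 18.3 and 12.4 CPM in gyf1 gyf2-1, 15.2, 17.7 and 16.6 CPM in gyf1 gyf2-2 and 6.76, 5.11 and 5.89 CPM in WT. The double mutants lay above every other library, with changes of 1.34 (SE 0.15, edgeR adjusted p = 5.67e-08) in gyf1 gyf2-1 and 1.48 (SE 0.15, edgeR adjusted p = 5.15e-09) in gyf1 gyf2-2. AT1G57630, another TIR domain gene, was measured at few reads, with 2.25, 2.14 and 1.81 CPM in gyf1, 1.61, 2.18 and 2.21 CPM in gyf2, 4.45, 4.51 and 3.64 CPM in gyf1 gyf2-1, 5.65, 4.497 and 6.91 CPM in gyf1 gyf2-2 and 2.25, 1.75 and 3.66 CPM in WT. It changed by 0.72 (SE 0.24, edgeR adjusted p = 0.0245) in gyf1 gyf2-1 and 1.16 (SE 0.23, edgeR adjusted p = 0.000288) in gyf1 gyf2-2; in gyf1 gyf2-1 1 library was below the highest WT library, and that call was lost without WT replicate 1 or 2 or gyf1 gyf2-1 replicate 1 or 2. AT1G72950, a TIR-NBS gene, had 1.32, 1.68 and 1.17 CPM in gyf1, 2.34, 2.18 and 2.02 CPM in gyf2, 2.36, 1.77 and 1.46 CPM in gyf1 gyf2-1, 0.907, 1.43 and 1.496 CPM in gyf1 gyf2-2 and 1.08, 1.05 and 0.902 CPM in WT. It rose by 1.103 (SE 0.29, edgeR adjusted p = 0.034) in gyf2 and 0.88 (SE 0.30, edgeR adjusted p = 0.0313) in gyf1 gyf2-1 and stood at 0.34 in gyf1 gyf2-2. The call in gyf2 was lost with any 1 of the 6 libraries compared left out, and the call in gyf1 gyf2-1 without any of them but gyf1 gyf2-1 replicate 3. AT1G65850, a TIR-NBS-LRR gene close to the count minimum, had 1.19, 1.48 and 1.59 CPM in gyf1, 1.29, 0.883 and 1.28 CPM in gyf2, 0.823, 1.46 and 0.897 CPM in gyf1 gyf2-1, 1.28, 1.09 and 1.65 CPM in gyf1 gyf2-2 and 0.704, 0.551 and 0.690 CPM in WT. It rose by 1.04 (SE 0.36, edgeR adjusted p = 0.0293) in gyf1 gyf2-2, a call lost without any of the 6 libraries compared but gyf1 gyf2-2 replicate 2. It stood at 0.69 (SE 0.37, edgeR adjusted p = 0.176) in gyf1 gyf2-1, uncalled. AT3G44630, listed under RPP1, was the last TIR gene that rose in gyf2, by 0.32 (SE 0.08, edgeR adjusted p = 0.0294), a call lost without WT replicate 1, WT replicate 2, gyf2 replicate 2 or gyf2 replicate 3. It had 48.1, 52.7 and 55.3 CPM in gyf2, 59.5, 65.7 and 58.1 CPM in gyf1 gyf2-1, 60.97, 60.2 and 62.4 CPM in gyf1 gyf2-2 and 37.5, 43.04 and 44.7 CPM in WT, and its changes of 0.55 and 0.55 in the double mutants held with any 1 library left out.

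**Figure D3:**
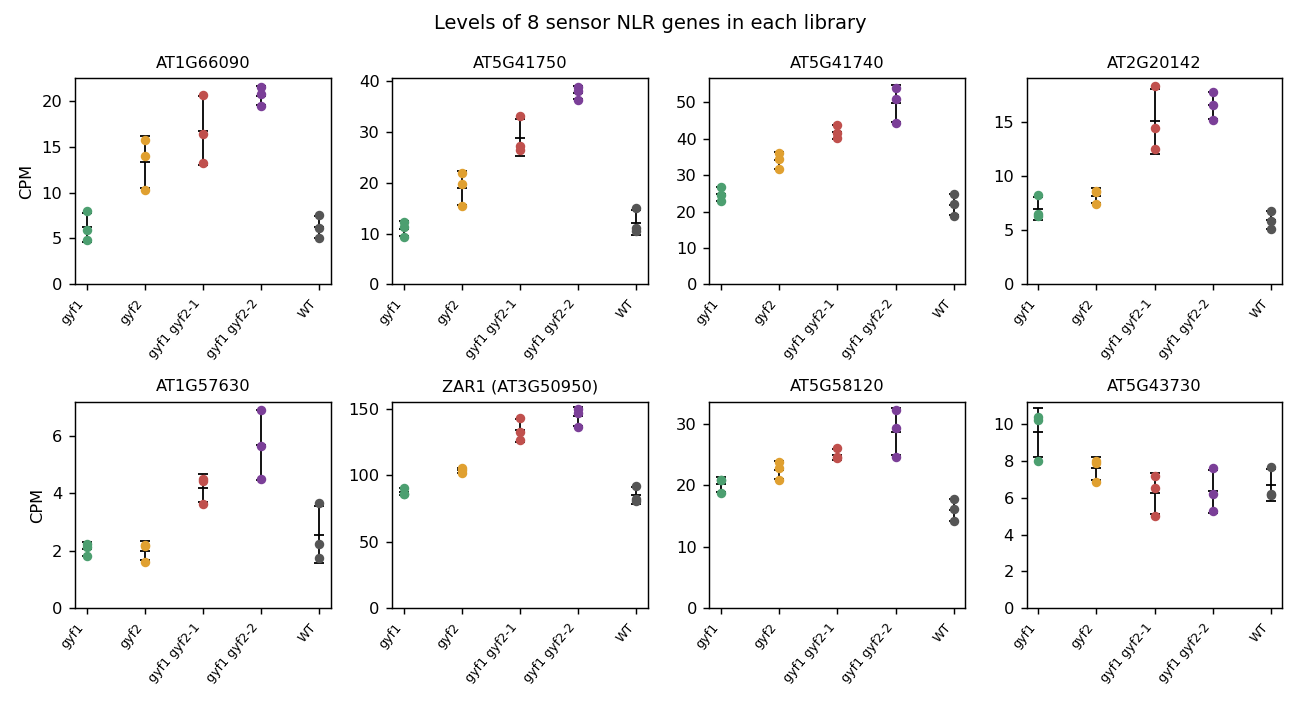
CPM of 8 sensor NLR genes in each of 15 libraries (points), with the mean and SD of 3 libraries per genotype (dash and bars); each vertical axis starts at 0. AT1G66090, AT5G41740 and AT5G41750 are higher in gyf2 and higher still in the double mutants, AT2G20142 and AT1G57630 are higher in the double mutants, and AT5G43730 is highest in gyf1.

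The RPP4/RPP5 cluster on chromosome 4 holds well-known TIR receptors, among them SNC1, whose gain-of-function allele gives dwarf plants with constant defence, and RPP4 and RPP5, which recognise downy mildew. With starts at most 50 kb apart, 92 members fell into 30 clusters of 2 or more and 54 stood alone. The RPP4/RPP5 cluster was the largest, with 11 members in chr4:9482429-9565569. In it 5 members rose and none fell in gyf1 gyf2-1, and 6 rose and 1 fell in gyf1 gyf2-2. Of all tested genes 14.2% and 15.1% rose and 11.7% and 12.6% fell. In the other clusters of at least 4 members, in genome order, 0 of 6, 1 of 4, 2 of 4, 1 of 5, 1 of 4 and 2 of 5 rose in gyf1 gyf2-1. In gyf1 gyf2-2 0, 0, 2, 1, 2 and 2 of them rose. RPP4 had 56.5, 69.99 and 65.99 CPM in gyf1, 64.1, 64.5 and 64.5 CPM in gyf2, 78.04, 102 and 97.7 CPM in gyf1 gyf2-1, 103, 78.02 and 93.5 CPM in gyf1 gyf2-2 and 54.8, 55.3 and 58.6 CPM in WT, and changed by 0.72 (SE 0.10, edgeR adjusted p = 9.76e-06) in gyf1 gyf2-1 and 0.70 (SE 0.10, edgeR adjusted p = 1e-05) in gyf1 gyf2-2. SNC1 had 133, 153 and 131 CPM in gyf1, 133, 143 and 146 CPM in gyf2, 153, 186 and 181 CPM in gyf1 gyf2-1, 185, 156 and 179 CPM in gyf1 gyf2-2 and 117, 134 and 139 CPM in WT, and changed by 0.42 (SE 0.08, edgeR adjusted p = 0.000392) in gyf1 gyf2-1 and 0.42 (SE 0.08, edgeR adjusted p = 0.000329) in gyf1 gyf2-2. RPP5 had 70.02, 75.4 and 73.3 CPM in gyf1, 77.7, 74.96 and 83.2 CPM in gyf2, 92.9, 115 and 105 CPM in gyf1 gyf2-1, 112, 84.4 and 109 CPM in gyf1 gyf2-2 and 63.4, 71.5 and 74.9 CPM in WT, and changed by 0.58 (SE 0.09, edgeR adjusted p = 5.72e-05) in gyf1 gyf2-1 and 0.54 (SE 0.09, edgeR adjusted p = 8.81e-05) in gyf1 gyf2-2. In all 3 genes the 6 double mutant libraries were above all WT libraries, neither single mutant was called, and the calls held with any 1 library left out. Within both double mutants the lowest values of all 3 came from gyf1 gyf2-1 replicate 1 and gyf1 gyf2-2 replicate 2.

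The same cluster also held genes that changed less or in the other direction. RLM3 had 291, 319 and 303 CPM in gyf1 gyf2-1, 306, 296 and 293 CPM in gyf1 gyf2-2 and 259.7, 263 and 278 CPM in WT, a change of 0.19 (SE 0.06, edgeR adjusted p = 0.0181) in gyf1 gyf2-1 and 0.16 (SE 0.06, edgeR adjusted p = 0.0414) in gyf1 gyf2-2; leaving out WT replicate 1, WT replicate 2 or gyf1 gyf2-1 replicate 2 ended the call in gyf1 gyf2-1, and any library but WT replicate 3 ended that in gyf1 gyf2-2. AT4G16880, a leucine-rich repeat gene between RPP4 and SNC1, had 9.81, 11.3 and 11.3 CPM in gyf1 gyf2-2 and 17.4, 11.96 and 13.4 CPM in WT and fell by 0.40 (SE 0.15, edgeR adjusted p = 0.0459) in gyf1 gyf2-2. That call was lost without WT replicate 1 or any gyf1 gyf2-2 library, and the change was more than 1.5 times smaller without WT replicate 1. AT4G16960 rose by 0.53 (SE 0.18, edgeR adjusted p = 0.0285) in gyf1 gyf2-1 and 0.54 (SE 0.18, edgeR adjusted p = 0.0223) in gyf1 gyf2-2, and AT4G16857 by 0.62 (SE 0.23, edgeR adjusted p = 0.0461) in gyf1 gyf2-2. Both were lost without WT replicate 1, which also made the changes of AT4G16960 more than 1.5 times smaller, and each without 2 or more other libraries. Copies in this cluster are alike in sequence, so reads may be shared between them.

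**Figure D4:**
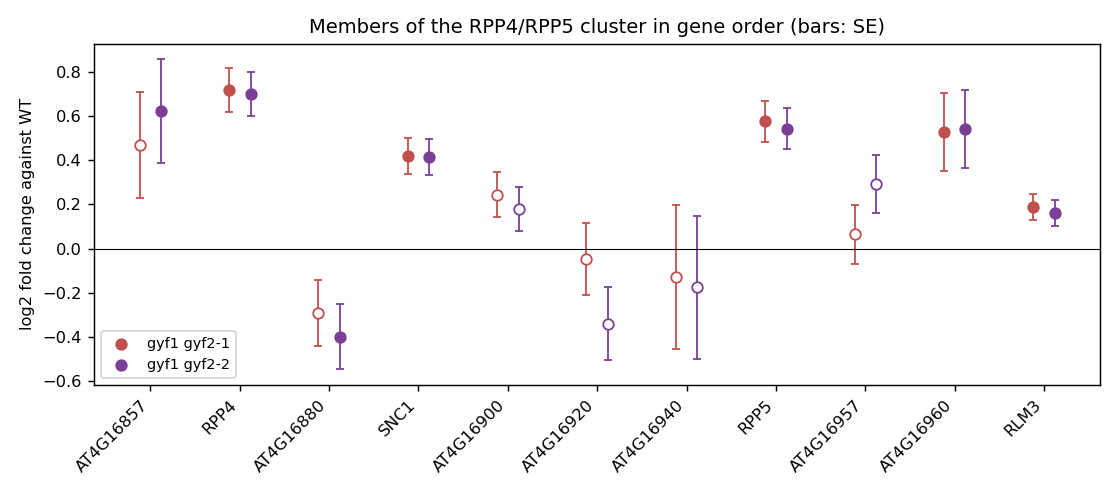
Log2 fold change against WT (points, with SE bars) of the 11 members of the RPP4/RPP5 cluster in their order along the chromosome, for gyf1 gyf2-1 and gyf1 gyf2-2; filled points were called at adjusted p below 0.05. RPP4, SNC1, RPP5, AT4G16960 and RLM3 are filled and above 0 in both, and in gyf1 gyf2-2 AT4G16857 is filled above 0 and AT4G16880 filled below 0.

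Head-to-head pairs let the change of one receptor be set against its neighbour. In such a pair, neighbouring genes lie on opposite strands with their starts facing each other. In RPS4 and RRS1 both proteins are needed for recognition, RRS1 carrying a WRKY domain that effectors target. TTR1 (RRS1B in SwissProt) with AT5G45060 (RPS4B) is a second pair of that kind. There were 6 head-to-head pairs of members, taken by gene order with no limit on distance. Between AT4G19520 and AT4G19530 lay 4463 bases, and between AT5G45200 and AT5G45210 4958 bases. The other pairs were at most 64 bases apart or overlapped. The whole space between RPS4 and RRS1 is 27 bases (chr5:18326176-18326202), and that between TTR1 and AT5G45060 is 64 bases (chr5:18181974-18182037). They are shown on the plus strand because each is all the sequence between the starts of a pair whose ratio differed from WT. No letters are in capitals.
RPS4 and RRS1: tgagatttgagtggttgaatgtccaat
TTR1 and AT5G45060: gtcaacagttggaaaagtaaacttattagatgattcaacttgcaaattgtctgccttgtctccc
RPS4 had 21.9, 22.5 and 23.7 CPM in gyf1 gyf2-1, 23.7, 21.0 and 22.7 CPM in gyf1 gyf2-2 and 18.1, 18.6 and 19.3 CPM in WT. RRS1 had 18.8, 22.7 and 23.2 CPM in gyf1 gyf2-1, 18.6, 18.7 and 20.02 CPM in gyf1 gyf2-2 and 19.5, 21.3 and 21.3 CPM in WT. RPS4 rose by 0.28 (SE 0.09, edgeR adjusted p = 0.0204) in gyf1 gyf2-1 and 0.27 (SE 0.09, edgeR adjusted p = 0.0241) in gyf1 gyf2-2, whereas RRS1 stood at 0.06 and -0.12. The log2 ratio of RPS4 to RRS1 was 0.16 ± 0.13 (SD, n = 6) in both double mutants pooled and -0.15 ± 0.04 (n = 3) in WT, and these groups did not overlap. It was -0.16, 0.08 and -0.17 in gyf1 and -0.01, 0.08 and -0.21 in gyf2, and both single mutants overlapped the double mutants. TTR1 had 36.1, 39.02 and 42.3 CPM in gyf1 gyf2-1, 35.8, 35.9 and 39.1 CPM in gyf1 gyf2-2 and 30.3, 29.8 and 33.01 CPM in WT and rose by 0.34 (SE 0.08, edgeR adjusted p = 0.00225) in gyf1 gyf2-1 and 0.25 (SE 0.08, edgeR adjusted p = 0.0171) in gyf1 gyf2-2. AT5G45060 had 37.5, 42.9 and 43.6 CPM in gyf1 gyf2-1, 43.2, 42.3 and 39.3 CPM in gyf1 gyf2-2 and 36.8, 43.5 and 41.2 CPM in WT and stood at 0.03 and 0.04. The log2 ratio of TTR1 to AT5G45060 was -0.12 ± 0.11 in the double mutants (n = 6) and -0.38 ± 0.14 in WT (n = 3). It was -0.46, -0.29 and -0.38 in gyf1 and -0.28, -0.24 and -0.21 in gyf2, and gyf2 overlapped the double mutants.

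In another pair the right-hand gene was the one that rose. AT4G36140 and AT4G36150 overlap by 35 bases at their starts, and the sources used here do not give the strand setting of the counting, so reads in the overlap are uncertain. AT4G36150 had 10.8, 13.1 and 11.3 CPM in gyf1 gyf2-1, 13.4, 8.65 and 12.7 CPM in gyf1 gyf2-2 and 6.62, 8.51 and 9.29 CPM in WT and rose by 0.53 (SE 0.16, edgeR adjusted p = 0.0137) in gyf1 gyf2-1 and 0.51 (SE 0.16, edgeR adjusted p = 0.0142) in gyf1 gyf2-2, while AT4G36140 stood at -0.14 and -0.19. The log2 ratio of AT4G36140 to AT4G36150 was 0.67 ± 0.24 in the double mutants (n = 6) and 1.34 ± 0.12 in WT (n = 3). In these 3 pairs the exact two-sided permutation p for the ratio was 0.0238, the smallest that 6 against 3 libraries can give, and 0.0476 after Benjamini-Hochberg adjustment over the 6 pairs. The test pooled both double mutants as 1 group of 6 libraries against WT and left out the single mutants. For AT4G19520 and AT4G19530 the ratio was higher by 0.46 (exact permutation p = 0.0476, adjusted 0.0714). For AT5G40090 and AT5G40100 the exact permutation p was 0.119 and for AT5G45200 and AT5G45210 it was 0.5. The single-gene calls of RPS4, of TTR1 in gyf1 gyf2-2 and of AT4G36150 were each lost without WT replicate 1. They were also lost without WT replicate 2 (RPS4 in both, TTR1 in gyf1 gyf2-2), without gyf1 gyf2-1 replicate 3 (RPS4) or 2 (AT4G36150), and without gyf1 gyf2-2 replicate 1 (RPS4, AT4G36150) or 3 (all of them).

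**Figure D5:**
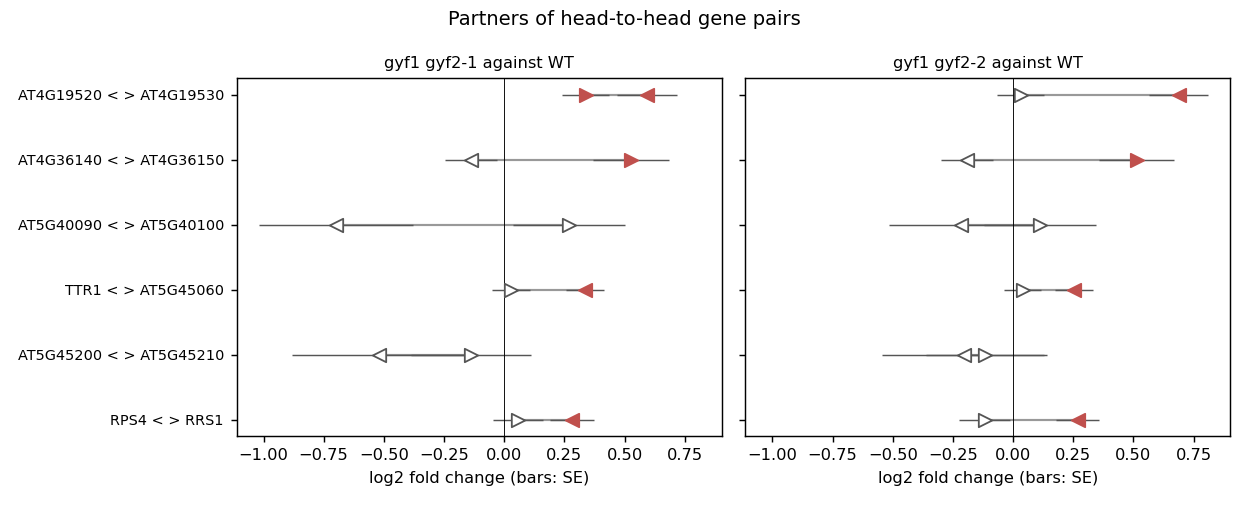
Log2 fold change against WT (horizontal axis, bars are SE) of both partners of 6 head-to-head pairs in each double mutant. Left-pointing marks are the gene on the minus strand, right-pointing marks the gene on the plus strand, and filled marks were called at adjusted p below 0.05. RPS4, TTR1 and AT4G19520 are filled in both double mutants, as is AT4G36150, and their partners lie nearer to 0. Of these partners only AT4G19530 is filled, in gyf1 gyf2-1, a call lost without WT replicate 1 or gyf1 gyf2-1 replicate 2 or 3.

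From a list of 39 characterised sensor NLR loci, 33 were members; 15 of these rose in gyf1 gyf2-1 and 17 in gyf1 gyf2-2, and none fell. Of all tested genes 14.2% and 15.1% rose and 11.7% and 12.6% fell. Among TIR receptors of that list, RPP1 had 97.6, 112 and 102 CPM in gyf1 gyf2-1, 112, 100.5 and 106 CPM in gyf1 gyf2-2 and 70.3, 88.5 and 89.4 CPM in WT and rose by 0.33 (SE 0.08, edgeR adjusted p = 0.00277) in gyf1 gyf2-1 and 0.36 (SE 0.08, edgeR adjusted p = 0.00102) in gyf1 gyf2-2. AT5G11250 had 21.8, 28.004 and 24.4 CPM in gyf1 gyf2-1, 26.2, 23.9 and 23.3 CPM in gyf1 gyf2-2 and 14.2, 16.1 and 15.02 CPM in WT and rose by 0.71 (SE 0.10, edgeR adjusted p = 7.22e-06) in gyf1 gyf2-1 and 0.70 (SE 0.10, edgeR adjusted p = 6.53e-06) in gyf1 gyf2-2. WRR4, which gives resistance to white rust, had 33.6, 30.4 and 34.1 CPM in gyf1 gyf2-1, 37.4, 38.9 and 40.9 CPM in gyf1 gyf2-2 and 28.3, 27.4 and 32.9 CPM in WT; it rose by 0.41 (SE 0.08, edgeR adjusted p = 0.000494) in gyf1 gyf2-2 and stood at 0.15 in gyf1 gyf2-1. RPS6, a receptor for the bacterial effector HopA1, changed by 0.27 and 0.26, and CSA1 by 0.34 and 0.34, all called. The RPS6 calls were lost without WT replicate 1 or 2, gyf1 gyf2-1 replicate 2 or 3, or gyf1 gyf2-2 replicate 1 or 3, and the CSA1 calls without WT replicate 1 and, in gyf1 gyf2-1, also without its replicate 2. Neither double mutant was called by the edgeR test for TAO1 (0.09 and 0.21), a receptor of the effector AvrB, nor for LAZ5 (0.13 and 0.11), AT5G18360 (0.36 and 0.30) or AT4G19500 (0.18 and 0.04). These log2 changes had standard errors of 0.08 to 0.16.

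Of the CC receptors, ZAR1 rose in gyf2 as well as in both double mutants. ZAR1 detects several bacterial effectors through pseudokinase partners, and its pentamer is the best-studied plant resistosome. It had 86.3, 90.6 and 85.8 CPM in gyf1, 104, 106 and 101 CPM in gyf2, 126, 143 and 132 CPM in gyf1 gyf2-1, 149.99, 136 and 147 CPM in gyf1 gyf2-2 and 80.6, 82.1 and 91.9 CPM in WT. The double mutants lay above gyf2 and gyf2 above gyf1 and WT, with no overlap between these steps, and the changes were 0.29 (SE 0.07, edgeR adjusted p = 0.0111) in gyf2, 0.66 (SE 0.07, edgeR adjusted p = 1.61e-08) in gyf1 gyf2-1 and 0.77 (SE 0.07, edgeR adjusted p = 5.14e-10) in gyf1 gyf2-2. The gyf2 call was lost without WT replicate 1, WT replicate 2 or gyf2 replicate 2, and the calls in the double mutants held with any 1 library left out. CW9 had 9.57, 10.5 and 11.3 CPM in gyf1, 12.3, 10.9 and 11.6 CPM in gyf2, 15.04, 18.4 and 16.6 CPM in gyf1 gyf2-1, 17.8, 17.6 and 18.2 CPM in gyf1 gyf2-2 and 9.15, 8.21 and 10.3 CPM in WT, and its changes were 0.85 (SE 0.11, edgeR adjusted p = 1.73e-06) in gyf1 gyf2-1 and 0.95 (SE 0.11, edgeR adjusted p = 1.6e-07) in gyf1 gyf2-2. RPP8 had 80.2, 92.96 and 87.4 CPM in gyf1 gyf2-1, 87.5, 76.8 and 83.5 CPM in gyf1 gyf2-2 and 66.8, 71.6 and 69.9 CPM in WT, and rose by 0.32 (SE 0.07, edgeR adjusted p = 0.00101) in gyf1 gyf2-1 and 0.25 (SE 0.07, edgeR adjusted p = 0.00778) in gyf1 gyf2-2, the call in gyf1 gyf2-2 being lost without gyf1 gyf2-2 replicate 1. RPM1, which guards RIN4, had 13.4, 12.8 and 15.7 CPM in gyf1 gyf2-1, 16.96, 15.3 and 14.7 CPM in gyf1 gyf2-2 and 10.7, 11.8 and 10.2 CPM in WT and rose by 0.36 (SE 0.12, edgeR adjusted p = 0.0248) in gyf1 gyf2-1 and 0.52 (SE 0.12, edgeR adjusted p = 0.00112) in gyf1 gyf2-2, the call in gyf1 gyf2-1 being lost without WT replicate 1 or 3 or gyf1 gyf2-1 replicate 3. RPP13 stood at 0.15 and -0.00 with standard errors of 0.09, and AT1G58602, the CC gene next to ZAR1 in mean FPKM, at 0.03 and 0.01 with standard errors of 0.08; neither was called.

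Outside the 3 domain classes, 2 genes rose in both double mutants. AT5G45510, a leucine-rich repeat gene, had 232, 251 and 238 CPM in gyf1, 222, 216 and 273 CPM in gyf2, 332, 385 and 388 CPM in gyf1 gyf2-1, 372, 292 and 362 CPM in gyf1 gyf2-2 and 189, 224 and 226 CPM in WT, and changed by 0.79 (SE 0.10, edgeR adjusted p = 6.64e-06) in gyf1 gyf2-1 and 0.68 (SE 0.10, edgeR adjusted p = 2.76e-05) in gyf1 gyf2-2. AT3G26470, described with an RPW8 domain as in helper NLRs, changed by 0.56 and 0.69. All double mutant libraries of AT5G45510 were above all others, and these 4 calls held with any 1 library left out.

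Falls were few. AT4G19060, an NB-ARC gene, had 13.5, 13.4 and 12.5 CPM in gyf1, 10.98, 11.01 and 10.3 CPM in gyf2, 10.6, 10.3 and 10.5 CPM in gyf1 gyf2-1, 10.5, 9.68 and 11.9 CPM in gyf1 gyf2-2 and 13.5, 11.9 and 14.6 CPM in WT. It fell by 0.35 (SE 0.11, edgeR adjusted p = 0.0219) in gyf1 gyf2-1 and by 0.32 (SE 0.11, edgeR adjusted p = 0.032) in gyf1 gyf2-2, with no overlap with WT. The call in gyf1 gyf2-1 was lost without WT replicate 1 or 3 or gyf1 gyf2-1 replicate 2 or 3, and that in gyf1 gyf2-2 without WT replicate 1 or 3 or gyf1 gyf2-2 replicate 1 or 2. AT5G05400 had 3.41, 4.25 and 3.46 CPM in gyf1 gyf2-2 and 4.32, 5.06 and 7.43 CPM in WT and fell by 0.59 (SE 0.22, edgeR adjusted p = 0.0435) in gyf1 gyf2-2, a call lost without WT replicate 2 or 3 or gyf1 gyf2-2 replicate 1 or 3; without WT replicate 3 the change was more than 1.5 times smaller. SUMM2, which watches over the MPK4 kinase pathway, and LOV1, which makes plants sensitive to the fungal toxin victorin, shared this class by description wording alone. SUMM2 stood at 0.04 and -0.15 and LOV1 at 0.02 and -0.08 in gyf1 gyf2-1 and gyf1 gyf2-2, uncalled.

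Many CC and NB-ARC transcripts are known targets of miR472, a microRNA that pairs with the stretch coding for the P-loop of the NB-ARC domain and, with RDR6, sets off secondary small RNAs. The mature sequence in the RefSeq annotation of TAIR10.1, at chr1:4182143-4182164 on the minus strand, is shown with its seed in capitals.
miR472-3p: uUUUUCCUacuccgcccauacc
The coding sequences of 27435 genes were searched for its complement with at most 4 mismatches in 22 bases. There were 29 genes with a match, and 18 of these were members, namely 10 CC genes, 7 NB-ARC genes and 1 TIR gene. The sites of 4 members are shown 5′ to 3′ in the DNA letters of the coding strand, with bases that match the full complement in capitals. They are the closest match, 2 that rose in a double mutant and the 1 that fell, at chr5:17566541-17566562, chr1:5461946-5461967, chr5:25285441-25285462 and chr5:1599805-1599826, the last 2 on the minus strand and the others on the plus strand.
AT5G43740: GGTATGGGgGGAGTAGGAAAAA
AT1G15890: GGTATGGGgGGAGTAGGtAAAA
AT5G63020: GGTATGGGtGGAGTAGGtAAAA
AT5G05400: GGTATGGGgGGAGTAGGcAAgA
AT5G43740, with 1 mismatch, stood at -0.06 and -0.12 in gyf1 gyf2-1 and gyf1 gyf2-2. AT1G15890 rose by 0.48 (SE 0.17, edgeR adjusted p = 0.0338) in gyf1 gyf2-1 and 0.68 (SE 0.16, edgeR adjusted p = 0.00234) in gyf1 gyf2-2, and AT5G63020 rose by 0.35 (SE 0.11, edgeR adjusted p = 0.0153) in gyf1 gyf2-1 and stood at 0.26 in gyf1 gyf2-2. The gyf1 gyf2-1 calls of AT1G15890 and AT5G63020 were lost without WT replicate 1 or gyf1 gyf2-1 replicate 3, and that of AT1G15890 also without WT replicate 3 or gyf1 gyf2-1 replicate 2; the change of AT5G63020 was more than 1.5 times smaller without WT replicate 1. In all, 3 of 18 genes with a match rose and 0 fell in gyf1 gyf2-1, and 1 rose and 1 fell in gyf1 gyf2-2, with medians of 0.01 and 0.05, beside the 14.2% and 15.1% of all tested genes that rose. Small RNAs were not measured.

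Where the double mutants were compared with the sum of the single mutants, few members departed from it. Non-additivity is the mean log2 change of both double mutants minus the sum of the changes of gyf1 and gyf2, tested in the same edgeR fit. It was above 0 for 9 members and below 0 for 2, beside 4.85% and 2.35% of all tested genes (7.2% in either direction). The largest were AT1G57630 at 1.59 (SE 0.33, edgeR adjusted p = 0.0026) and AT5G41750 at 0.93 (SE 0.18, edgeR adjusted p = 0.00239), and ZAR1 stood at 0.38 (SE 0.09, edgeR adjusted p = 0.00814). The count of 9 was 5 without WT replicate 3, 4 without gyf1 replicate 3 and 5 without gyf2 replicate 2. Of all tested genes 3.46%, 3.51% and 3.35% were then called higher. The 2 became 1 without WT replicate 1, gyf1 replicate 1 or 3, or gyf2 replicate 1 or 3. In those fits 1.47% to 1.87% of all tested genes were called lower. AT1G57630, AT5G41750, AT4G19520 and ZAR1 kept their call with any 1 library left out.

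Genes of NLR signalling, folding, guarding, turnover and mRNA control were counted from a list of 34 loci set apart from the members. Of these 33 were tested. In gyf1 none was called. In gyf2 4 rose, namely the helpers ADR1 (0.50), ADR1-L1 (0.44) and ADR1-L2 (0.71), which kept their calls with any 1 library left out, and PBL2 (0.38). The call of PBL2 was lost without any of the 6 libraries compared but gyf2 replicate 2. In gyf1 gyf2-1 14 rose and in gyf1 gyf2-2 17 rose, and none fell in any. Beside these counts, 1.99%, 14.2% and 15.1% of all tested genes rose in gyf2, gyf1 gyf2-1 and gyf1 gyf2-2. With single libraries left out, 12 to 16 rose in gyf1 gyf2-1 (10.8% to 13.8% of all tested genes) and 15 to 16 in gyf1 gyf2-2 (11.7% to 14.7%). In gyf1 gyf2-2, 2 then fell without WT replicate 1 and 1 without gyf1 gyf2-2 replicate 3, beside 10.4% and 9.77% of all tested genes. Of the 10 hub and helper genes tested, 8 rose in gyf1 gyf2-1 and 9 in gyf1 gyf2-2, with median changes of 0.59 and 0.67. NDR1 rose in gyf1 gyf2-2 alone, by 0.43, a call lost without WT replicate 2 or 3 or gyf1 gyf2-2 replicate 2 or 3. EDS1, the hub of TIR signalling, averaged 56.5 ± 6.75 CPM in gyf1 gyf2-1, 60.7 ± 3.38 in gyf1 gyf2-2 and 37.3 ± 2.07 in WT (SD, n = 3 each). It rose by 0.60 (edgeR adjusted p = 2.74e-06) and 0.70 (edgeR adjusted p = 1.28e-07). Its partner SAG101 rose by 0.53 and 0.76 and PAD4 by 0.33 and 0.58, and the helper ADR1-L1 by 1.00 and 1.03. Of the NRG1 helpers, AT5G66910 rose by 0.57 in each and AT5G66900 stood at 0.10 and 0.09, uncalled. Among 7 chaperone genes that fold NLRs, 1 and 2 rose: SGT1A at 0.34 and 0.57 in both, and SGT1B at 0.23 in gyf1 gyf2-2, a call lost without WT replicate 2. Of 7 guarded proteins and adaptors 2 and 3 rose, with PBL2, listed as APK2A and a decoy kinase for ZAR1, at 0.91 and 1.03. Of 9 genes of NLR turnover and mRNA control 3 rose in each double mutant, with DCL4 at 0.31 and 0.29, calls lost without WT replicate 1, gyf1 gyf2-1 replicate 2 or 3, or gyf1 gyf2-2 replicate 1 or 2, while RDR6 stood at 0.15 and 0.06, uncalled. Left out singly, WT replicate 1 also made the change of DCL4 in gyf1 gyf2-2 more than 1.5 times smaller. AT5G43560, of the same 9, rose by 0.22 in gyf1 gyf2-1, a call lost without WT replicate 1 or gyf1 gyf2-1 replicate 3. Its rise of 0.20 in gyf1 gyf2-2 was lost without WT replicate 1 or 3 or gyf1 gyf2-2 replicate 1 or 3.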

How the data were processed

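mRNA was sequenced from 15 libraries of seedlings, 3 per genotype. Per the submitters' processing notes, the genome build was TAIR10 and the tools included HTSeq 0.6.1p1 and HISAT2 2.0.4; their roles and the strand setting are not given in the sources used here, and the labels call the libraries strand-specific. The authors deposited raw counts per gene, and separately FPKM per gene, used here to compare levels between genes. Members and lists were chosen with earlier results of these data known.

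The deposited counts were analysed in R 4.3.3 with edgeR 4.0.16: filterByExpr (20721 of 32833 genes kept), TMM scaling, and 1 robust quasi-likelihood fit with a mean per genotype over 15 libraries. Genes were called at a Benjamini-Hochberg adjusted p below 0.05 over all tested genes. SE is the absolute log2 fold change divided by the square root of F, and CPM uses TMM-scaled library sizes. Pair ratios used CPM plus a pseudocount of 0.1 and an exact permutation test (Python 3.11.15). Alternatives were DESeq2 1.42.0, RLE scaling, no filter, a replicate block, the compared groups alone, leaving out each library, and members with a mean count of at least 50. The fit was tested on simulated data. Same-numbered libraries had correlated deviations of -0.07 to 0.19, not above 0.1 in every pair of any comparison, so numbers were not taken as pairs. Named members are those called in a single mutant, the 8 largest non-overlapping rises and falls in each double mutant, up to 5 called for non-additivity, the 5 highest and 3 lowest by FPKM, characterised receptors (some by count alone) and head-to-head pairs; others were named after their values were seen. The results of 1 member are not reported here.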

Additional observations from a re-analysis of the deposited data

Results flagged for a closer look

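For 11 members the effect of the double mutants differed from the sum of the single mutants' effects by the edgeR test of that difference (Benjamini-Hochberg adjusted p below 0.05 over all tested genes), a share near the 7.2% of all tested genes called. It was higher, on the log2 scale, by 1.5885 for AT1G57630, 0.933 for AT5G41750, 0.7049 for AT2G20142, 0.6957 for AT4G19520, 0.5893 for AT3G44400, 0.4482 for AT1G63860, 0.4055 for AT3G04210, 0.377 for AT3G50950 (ZAR1) and 0.3432 for AT5G45490. It was lower, at -0.7897 for AT5G43730 and -0.4647 for AT4G19530. AT5G43730 had 10.4, 7.998 and 10.3 CPM in gyf1, 7.91, 7.99 and 6.88 CPM in gyf2, 4.99, 7.18 and 6.56 CPM in gyf1 gyf2-1, 5.28, 7.61 and 6.19 CPM in gyf1 gyf2-2 and 6.195, 6.16 and 7.696 CPM in WT. All 3 gyf1 libraries were above all 3 WT libraries, and its changes in gyf1 gyf2-1 and gyf1 gyf2-2 were -0.10 and -0.07, uncalled. AT4G19530 averaged 73.6 ± 11.3 CPM in gyf1, 73.7 ± 3.42 CPM in gyf2, 74.4 ± 6.81 CPM in gyf1 gyf2-1, 60.1 ± 2.03 CPM in gyf1 gyf2-2 and 58.9 ± 7.88 CPM in WT (SD, n = 3 each). AT3G04210 averaged 43.6 ± 3.096 CPM in gyf1 and 51.3 ± 1.604 CPM in WT, and was called against WT in no mutant. AT5G43730 lost its call without gyf1 replicate 1, gyf1 replicate 3 or gyf2 replicate 2. In the 15 fits that each leave out 1 library, AT3G44400 lost its call in 12, AT3G04210 in 7, AT1G63860 in 6, AT5G45490 and AT2G20142 in 5 each, and AT4G19530 in 4.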

How the results depend on the processing

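Counts of called members kept their direction under RLE scaling, no filter, the compared groups alone, DESeq2 and the higher count minimum, and stayed within 1.5 times except in gyf1, where 0 rose in the fit as reported, 1 with no filter, 1 by DESeq2 and 2 with the replicate number as a block. With the block 8 members rose in gyf2, 51 rose in gyf1 gyf2-1 and 57 rose in gyf1 gyf2-2, and non-additivity was called higher for 11. Of all tested genes 2.46%, 15.6% and 16.3% then rose, and 5.94% were called higher for non-additivity. These member counts were all within 1.5 times of those without the block. The labels do not pair same-numbered libraries. With single libraries left out, 0 to 1 members rose in gyf1, 3 to 6 rose in gyf2, 30 to 46 rose and 0 to 1 fell in gyf1 gyf2-1, and 35 to 53 rose and 0 to 4 fell in gyf1 gyf2-2. Non-additivity was called higher for 4 to 11 and lower for 1 to 3. Of 74 called values of named genes 46 kept their call under every alternative run and 28 lost it in at least 1, most often without WT replicate 1 (24 calls). The cause was not tested. With 3 libraries per genotype and mean counts down to 20.1, small changes of the lowest members were not detectable at this depth.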
